A study of Mus musculus with 2 samples.

Results

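The RNA levels of 35 lysosomal genes were compared between Setdb1-knockdown and vector-control CT26 cells. They were a fixed list of gene symbols, described as a lysosomal set downstream of the transcription factors TFEB and TFE3, with Tfeb and Tfe3 themselves. Each symbol matched 1 of the 54680 loci of the deposited table, and all 35 reached 5 FPKM in at least 1 library. CT26 is a mouse colon cancer line. The knockdown group (CT26shSetdb1) received lentivirus with a short hairpin targeting Setdb1, the gene of an enzyme that methylates histone H3. The control group (CT26shCtrl), given as wild type, received lentivirus with the vector alone. Both were grown in the same serum-containing medium and harvested at day 6, when the submitters describe a phenotypic change of the knockdown cells and call them differentiated, and the labels do not say whether the cells were a clone or a pool. Total RNA was sequenced with 1 library in each group, so no difference below has a replicate check, and each describes these libraries and not the conditions.

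Lysosomes are acidic compartments in which proteins, glycans and lipids delivered by endocytosis and autophagy are taken apart. Soluble hydrolases carry out the digestion, heavily glycosylated membrane proteins line the organelle, and the vacuolar ATPase (V-ATPase) pumps protons into it. TFEB and TFE3 are basic helix-loop-helix factors that bind E-box motifs in the promoters of many lysosomal genes. Their activity is controlled largely by phosphorylation and movement into the nucleus, which RNA levels do not report.

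Promoters are shown first, because the 35 genes are grouped by a shared regulator. Sequences came from RefSeq on GRCm38.p6 as windows of 300 bases, from 250 before to 50 after each start site. Of the 35 genes, 29 matched, and those not matched were Ctsb, Asah1, Npc1, Atp6v1b2, Atp6v1c1 and Atp6v1h. Windows were searched on both strands for the E-box CACGTG and for the longer GTCACGTG, which contains it. CACGTG was found for 13 of the 29 genes (44.8%) and for 2187 of all 27025 genes with a window in the RefSeq promoter table (8.09%). GTCACGTG was found for 9 of the 29 (31.0%) and for 689 of those 27025 (2.55%). The genes were listed as TFEB and TFE3 targets, a class that such motifs helped to define, so these shares are not independent of the choice. The 6 sequences below belong to the genes with CACGTG whose expression ratios were farthest from 0. They run 5′ to 3′ on the strand of the gene, with the motif matches in capitals, and a match is a description of the letters, not a bound site.
Atp6v0d1, chr8:105566050-105566079, minus strand: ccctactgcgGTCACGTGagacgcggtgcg
Naglu, chr11:101070009-101070038, plus strand: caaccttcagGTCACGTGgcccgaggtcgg
Gla, chrX:134601182-134601244, minus strand: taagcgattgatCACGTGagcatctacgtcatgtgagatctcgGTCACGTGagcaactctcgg
Atp6v0b, chr4:117887330-117887377, minus strand: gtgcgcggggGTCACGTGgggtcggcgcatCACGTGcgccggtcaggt
Ctsl, chr13:64370739-64370768, minus strand: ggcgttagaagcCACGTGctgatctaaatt
Atp6v0e, chr17:26676387-26676416, plus strand: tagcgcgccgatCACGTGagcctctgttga
The E-box of Atp6v0d1 spanned the RefSeq start site and that of Atp6v0e began just after it. Those of Ctsl and Gla lay in the distal part of their windows. These positions depend on the start site used. In the deposited annotation Ctsl and Gla begin further upstream, at 64370890 and 134601125, and the printed stretch of Ctsl lies inside the gene. Ratios of both signs occur among the genes printed above: Atp6v0d1 was the lowest of the 35 and Naglu the fourth highest.

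The libraries held 19045830 reads (knockdown) and 18421604 reads (control), which were recovered from the FPKM values and the gene lengths. Setdb1 itself had 1340 control reads and 317 knockdown reads, 23.7% of the control FPKM. Among 11 colon epithelial markers, only Krt18 (37.7 FPKM with control vector and 90.0 with knockdown), Krt19 (0.0288 and 1.53) and Krt20 (5.07 and 35.6) reached 1 FPKM in at least 1 library. Krt19 (1 control read and 53 knockdown reads) passed that level only in the knockdown library, so its place here depends on its higher value. Krt18, Krt19 and Krt20 were higher beside the lysosomal ratios below, and their part in those was not tested. Under 1 FPKM, control and knockdown reads were 7 and 8 for Krt8, 5 and 18 for Cdx2 and 1 and 7 for Vil1. They were 3 and 1 for Muc2 and 28 and 23 for Lgals4. Epcam, Cdh1 and Cdx1 had no reads in either library, so most of the defining markers of colon epithelium were absent or scarce in this colon cancer line. Among 12 macrophage and leukocyte markers, only Cd14 reached 1 FPKM (21.7 in the control and 41.3 in the knockdown library). The other 11 had 26 and 44 reads in all, with Adgre1, Itgam, C1qa, C1qb, Cd163 and Tyrobp at 0 in both.

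As a set, the 35 genes differed little between the libraries. In bulk RNA, a different share of cells and a different amount of RNA per cell cannot be told apart. None was 2-fold higher and none 2-fold lower in the knockdown library, against 6.81% higher and 4.85% lower among the 10671 genes at 1 FPKM or more. Over the 6870 genes at 5 FPKM or more, a level that all 35 reached, the shares were 7.63% and 5.30%. The log2 ratio of (FPKM + 1), knockdown over control, had a median of 0.20 over the 35 genes, and its quartiles lay at -0.10 and 0.33. For all genes the median was -0.00039, between quartiles at -0.36 and 0.38. For those at 5 FPKM or more it was 0.035, between -0.34 and 0.41. Higher by any amount with knockdown were 22 of the 35 (62.9%), against 49.6% of all genes. Among those at 5 FPKM or more the share was 52.5%. Under upper-quartile scaling 20 of the 35 were higher. The shares of 49.6% and 52.5% were taken without that scaling, so the 20 cannot be set against them. The median log2 ratio over a set of 9429 genes also fell under it, from -0.0023 to -0.047. At 1.5-fold, without that scaling, 4 of the 35 were higher (Ctsz, Npc2, Npc1 and Naglu), against 16.9% of all genes. Only 1 was lower (Atp6v0d1), against 14.3%. The other 30 (85.7%) stayed within 1.5-fold, as did 68.8% of all genes and 68.0% of those at 5 FPKM or more.

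**Figure D1:**
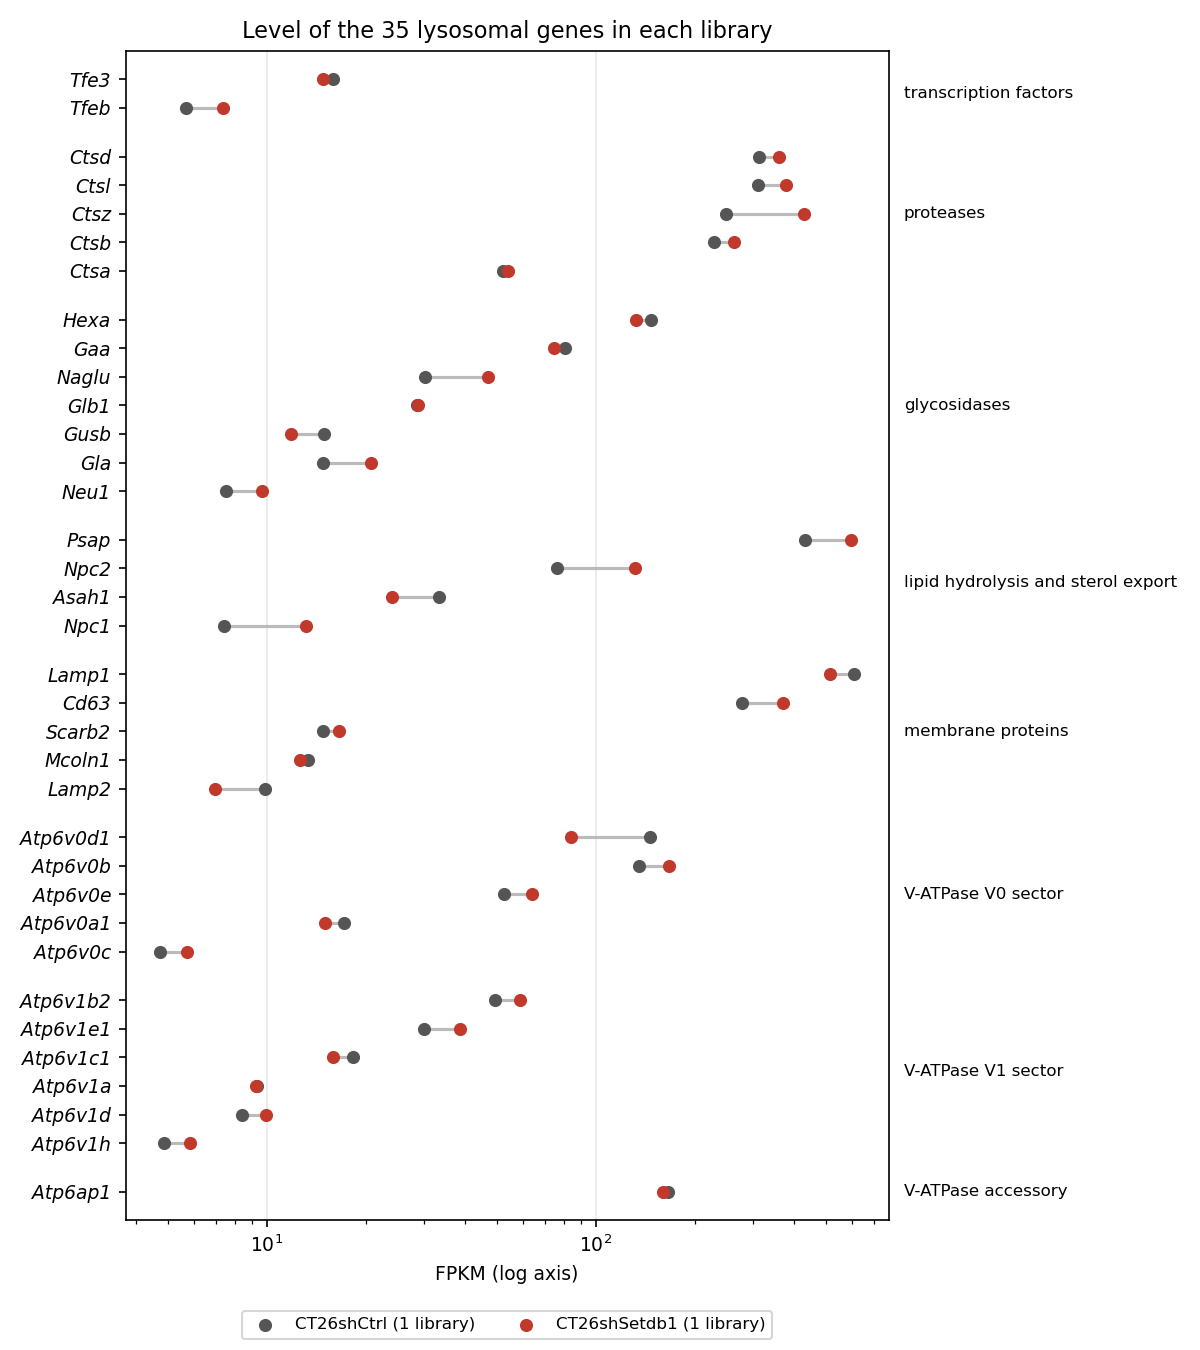
FPKM on a log axis for each of the 35 genes in the control library (grey) and the knockdown library (red), grouped by role. Levels ran from 4.75 FPKM for Atp6v0c to 609 FPKM for Lamp1 in the control library, and the grey and red points of each gene lie close together on this scale.

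These genes were deeply covered, with at least 301 reads in each library, so counting error was small beside most of the ratios. Read ratios below are relative to each library's total and carry 95% exact binomial (Clopper-Pearson) intervals, which cover counting error only. Reads copied by PCR are not independent molecules, so the intervals may be too narrow even for that error. The interval excluded 1 for 31 genes, 19 above it and 12 below. An exact binomial test of the reads, two-sided with Benjamini-Hochberg adjustment over all 10671 genes, gave the same 19 higher and 12 lower at an adjusted p under 0.05. It also passed 34.5% of all genes as higher and 40.0% as lower. The test compares the 2 libraries and does not measure variation between cultures. Together the 35 genes took 1.28% of control reads and 1.43% of knockdown reads.

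**Figure D2:**
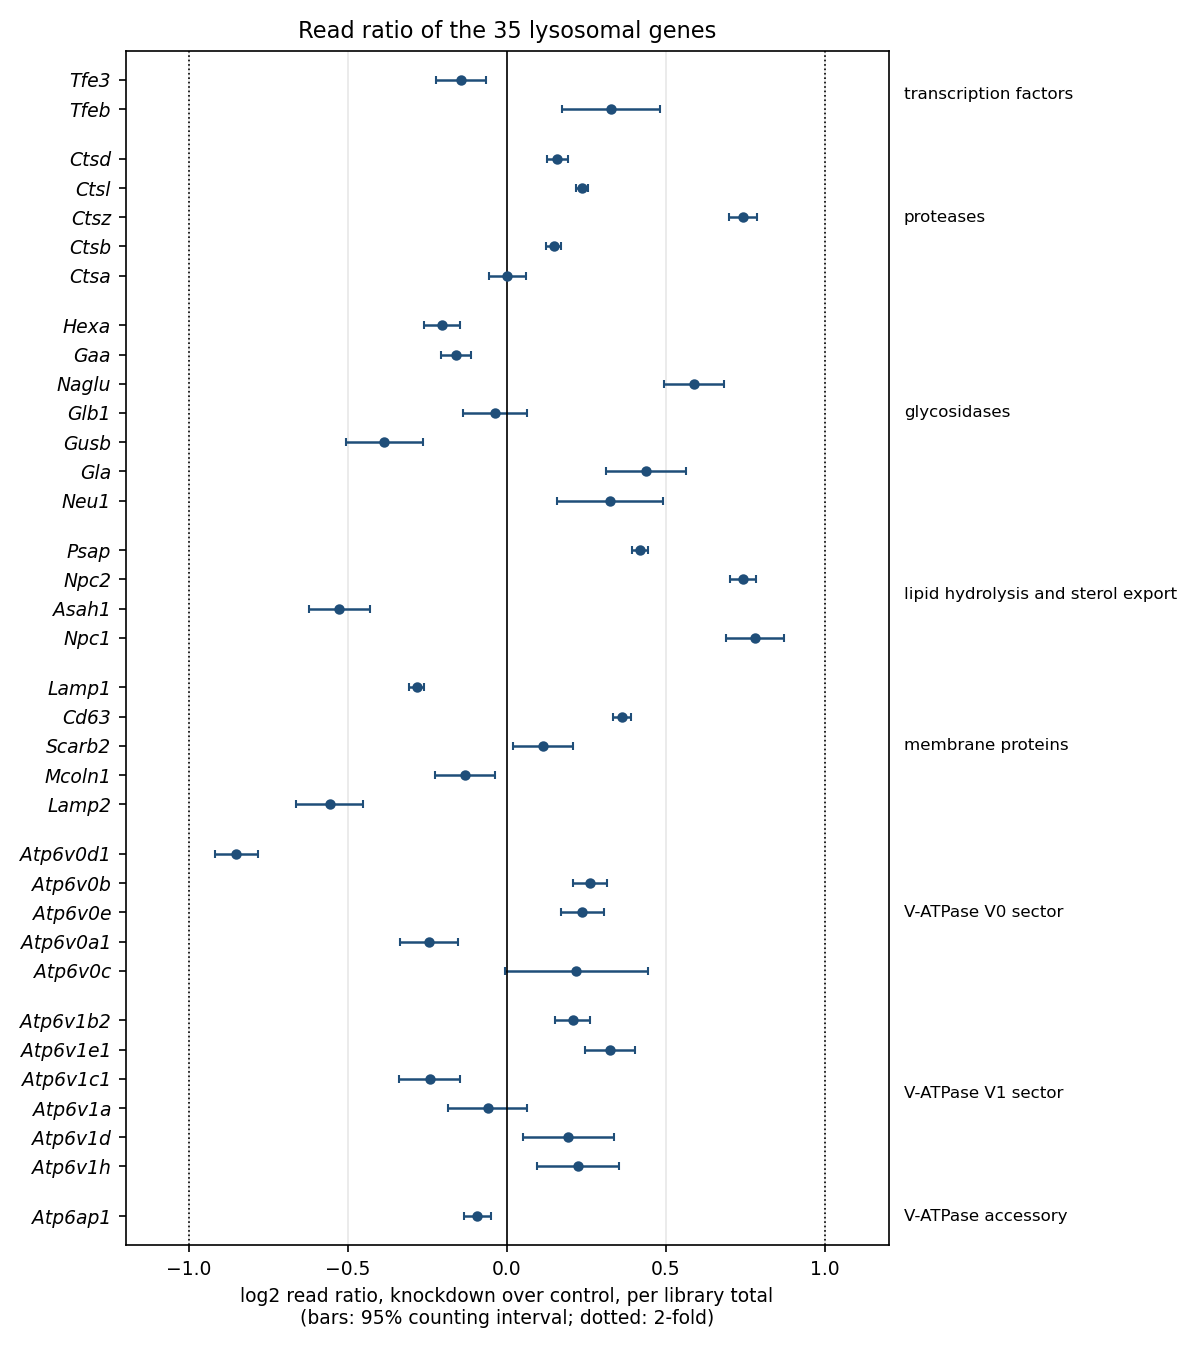
Read ratio of each of the 35 genes, knockdown over control per library total, on a log2 axis, with bars for the 95% counting interval and dotted lines at 2-fold. All points lie between the dotted lines, and the intervals of Ctsa, Glb1, Atp6v0c and Atp6v1a include a ratio of 1.

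The regulators differed in opposite senses and by little. Tfeb (chromosome 17, 47737030 to 47792419), a regulator of lysosomal genes, was at 5.68 FPKM (603 reads) in control cells and 7.36 FPKM (782 reads) in knockdown cells. Its log2 ratio was 0.32 and its read ratio 1.25 (1.13 to 1.40). Tfe3 (chromosome X, 7762560 to 7775202), its paralog, was the more abundant of the pair, at 15.9 FPKM (2762 reads) against 14.9 FPKM (2582 reads) with knockdown. The Tfe3 log2 ratio was -0.09 and the read ratio 0.904 (0.857 to 0.954). Summed over both genes, the reads were 3365 and 3364. The other members of the family were scarce: Mitf had 80 and 103 reads and Tfec 5 and 0, all under 1 FPKM.

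Lysosomal proteases were among the most abundant of the 35 genes, and all 5 were higher with knockdown on the FPKM scale. Ctsz (ENSMUSG00000016256, chromosome 2, 174427493 to 174439039) encodes cathepsin Z, a cysteine carboxypeptidase. Control cells had 248 FPKM (6703 reads) and knockdown cells 430 FPKM (11600 reads) of it. That log2 ratio of 0.79 was the highest of the 35, and the read ratio was 1.67 (1.62 to 1.73). It moved Ctsz from the third to the most abundant of the 5 proteases. Ctsl, a cysteine endopeptidase, had the most reads of all 35 genes, 37915 with control vector and 46177 with knockdown, and its log2 ratio was 0.28. The aspartic protease gene Ctsd went from 313 to 361 FPKM (log2 ratio 0.20), and Ctsb, a cysteine protease, from 229 to 263 FPKM (0.19). The lowest protease ratio belonged to Ctsa, the serine carboxypeptidase that shields neuraminidase and beta-galactosidase, at 52.2 FPKM (4613 reads) and 54.0 FPKM (4772 reads). Its read ratio was 1.0006 (0.961 to 1.04) and its log2 ratio 0.05, which was -0.00328 under upper-quartile scaling. The 5 protease genes together had 88996 control reads and 108187 knockdown reads. Exons of Ctsz overlap Nelfcd, which had 960 and 981 reads, and those of Ctsb overlap Fdft1, with 1844 and 1692. Reads from overlapping genes may have been counted for either.

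The 7 glycosidase genes split, with 4 higher, 3 lower and a median log2 ratio of 0.01. Naglu (chromosome 11, 101070012 to 101077672) encodes alpha-N-acetylglucosaminidase, a step of heparan sulfate breakdown that is lost in a form of Sanfilippo syndrome. It had the highest ratio, from 30.3 FPKM (1509 reads) to 47.1 FPKM (2344 reads), which is 0.62 on the log2 scale and 1.502 (1.41 to 1.604) by reads. Gla, the alpha-galactosidase deficient in Fabry disease, went from 14.8 FPKM (906 reads) to 20.7 FPKM (1268 reads), a log2 ratio of 0.46. Neu1, the lysosomal sialidase, was the least abundant glycosidase gene, at 7.51 and 9.71 FPKM (log2 ratio 0.33). Gusb (chromosome 5, 129989011 to 130003049), which encodes beta-glucuronidase, was lowest in ratio, from 14.9 FPKM (1273 reads) to 11.8 FPKM (1007 reads), which is -0.31 on the log2 scale and 0.765 (0.704 to 0.832) by reads. Gaa, the glycogen-degrading alpha-glucosidase of Pompe disease, was at 80.8 and 74.7 FPKM (-0.11). Hexa, the beta-hexosaminidase alpha subunit of Tay-Sachs disease, was at 148 and 132 FPKM (-0.16). Glb1, beta-galactosidase, had 1617 and 1629 reads and a log2 ratio of 0.01. Summed over the 7 genes, 18584 control reads stood against 18570 knockdown reads. The median was -0.04 under upper-quartile scaling, so its sign depends on the scaling.

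Genes of 1 protein complex were compared. Cathepsin A, beta-galactosidase and neuraminidase form a complex in the lysosome, and of their genes Ctsa and Glb1 had read-ratio intervals that included 1, while that of Neu1 was 1.11 to 1.40.

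The 4 genes of lipid hydrolysis and sterol export had the highest median log2 ratio of the roles with more than 1 gene, 0.61, with 3 higher and 1 lower. NPC2, a soluble protein of the lysosomal lumen, hands cholesterol to the membrane protein NPC1, and loss of either causes Niemann-Pick type C disease. Npc2 (ENSMUSG00000021242, chromosome 12, 84754562 to 84773152) was at 76.4 FPKM (7787 reads) in control cells against 132 FPKM (13461 reads). Its log2 ratio was 0.78 and its read ratio 1.67 (1.63 to 1.72). Npc1 (chromosome 18, 12189693 to 12236400) was far less abundant but showed a similar ratio, from 7.40 FPKM (1487 reads) to 13.1 FPKM (2639 reads). The Npc1 log2 ratio was 0.75 and the read ratio 1.72 (1.61 to 1.83), so the intervals of both genes overlapped. Exons of Npc1 overlap Rmc1, which had 882 and 1090 reads.

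Psap encodes prosaposin, the precursor of the saposins that present sphingolipids to their hydrolases. By FPKM it ranked below only Lamp1 in control cells, at 433 (22238 reads), and first of the 35 in knockdown cells, at 597 (30694 reads), with 0.46 as its log2 ratio. Asah1 (chromosome 8, 41340197 to 41374773), acid ceramidase, was lower, from 33.5 FPKM (2125 reads) to 24.0 FPKM (1524 reads), or -0.46 on the log2 scale and 0.694 (0.649 to 0.741) by reads. Of sphingolipid hydrolase genes outside the list, Galc had a log2 ratio of 0.07, Arsa -0.02 and Smpd1 -0.05.

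Of the 5 membrane protein genes, 2 were higher and 3 lower, with a median log2 ratio of -0.08. LAMP1 and LAMP2 are the main glycoproteins of the lysosomal membrane, and the genes of both were lower. Lamp1 had the highest FPKM of the 35 genes in control cells, 609 (30529 reads), against 517 (25918 reads) in knockdown cells (log2 ratio -0.24). Lamp2 (chromosome X, 38401357 to 38456454), which also serves chaperone-mediated autophagy, was far less abundant, at 9.90 FPKM (1771 reads) and 6.95 FPKM (1244 reads), and had the lowest membrane ratio, -0.45, or 0.679 (0.631 to 0.731) by reads. Cd63 (chromosome 10, 128900989 to 128912822), a tetraspanin of late endosomes and exosomes, had the highest, from 279 FPKM (19210 reads) to 370 FPKM (25520 reads), or 0.41 on the log2 scale and 1.28 (1.26 to 1.31) by reads. The processed pseudogene Cd63-ps was itself listed with 1420 and 1796 reads, and with these added the ratio of Cd63 was 0.40. Scarb2, a glycoprotein that spans the lysosomal membrane, was at 14.8 and 16.6 FPKM (0.15). Mcoln1, a calcium-permeable channel of the lysosomal membrane, was at 13.4 and 12.6 FPKM (-0.08).

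The V-ATPase is built from a membrane sector, V0, through which protons pass, and a cytosolic sector, V1, which hydrolyses ATP. The 12 V-ATPase genes had a median log2 ratio of 0.22, with 7 higher and 5 lower, and together 36925 control reads and 37941 knockdown reads. That near balance of reads held a wide spread in the V0 sector. Atp6v0d1 (ENSMUSG00000013160, chromosome 8, 105524465 to 105566047), the d subunit that couples V0 to the central stalk, had the lowest ratio of the 35 genes. Control cells had 147 FPKM (4929 reads) of it and knockdown cells 84.1 FPKM (2825 reads), which is -0.80 on the log2 scale and 0.554 (0.529 to 0.581) by reads. Its paralog Atp6v0d2 had no reads in either library, so d subunit RNA as a whole was at 57.3% of the control FPKM. The proteolipid gene Atp6v0b had the highest V0 ratio, from 135 FPKM (5187 reads) to 167 FPKM (6424 reads), or 0.31 on the log2 scale and 1.198 (1.15 to 1.24) by reads. Atp6v0e was at 52.5 and 64.0 FPKM (0.28). Thus, within the V0 sector, the d subunit gene was lower while those of a proteolipid and the small e subunit were higher, and all 3 carry the E-box shown above.

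Atp6v0c, which encodes the main proteolipid of the proton ring, had the lowest FPKM of the 35 genes in the control library, 4.75 (301 reads), against 5.71 (362 reads) with knockdown. The interval of its read ratio, 0.996 to 1.36, included 1. The processed pseudogene Atp6v0c-ps2, which carries the same protein match, was listed at 351 and 442 FPKM (3061 and 3853 reads). How reads were divided between the near-identical copies is not given in the sources used here, so the level of Atp6v0c is uncertain. With the reads of these loci added up, its log2 ratio was 0.32.

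The a subunit of V0 has 4 genes, which differ in where they send the pump. Atp6v0a1, on the list, was at 17.2 FPKM (2113 reads) and 15.0 FPKM (1844 reads), a log2 ratio of -0.18. Atp6v0a2 was at 18.05 and 12.6 FPKM (-0.49). Tcirg1 (ENSMUSG00000001750, chromosome 19, 3896050 to 3907133), which encodes the a3 form found in lysosomes and in the osteoclast ruffled border, was at 22.9 FPKM (1918 reads) and 62.2 FPKM (5206 reads). Its log2 ratio was 1.40 and its read ratio 2.63 (2.49 to 2.77). The forms at 1 FPKM or more were thus at similar levels in the control library, and Tcirg1 alone was well above the others in the knockdown library. By FPKM, the Tcirg1 share of the summed a subunit level was 39.4% with control vector and 69.2% with knockdown, and that of Atp6v0a1 29.6% and 16.7%. Atp6v0a4 had 3 reads in each library. Of the 14 V-ATPase genes outside the list, 6 reached 1 FPKM, 3 higher and 3 lower at a median of -0.06.

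**Figure D3:**
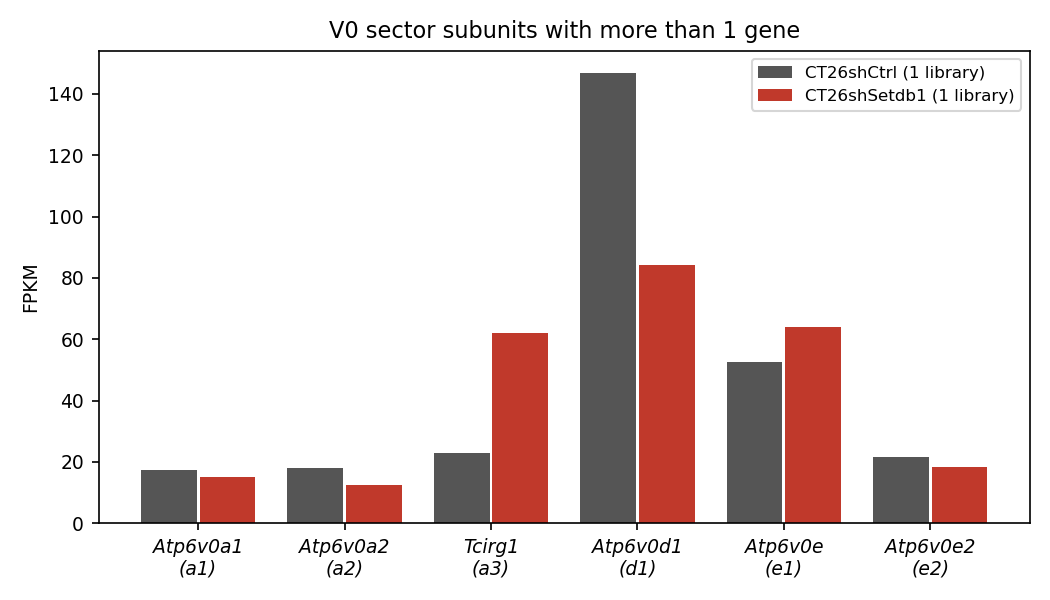
FPKM of the V0 subunits that have more than 1 gene and reached 1 FPKM, in the control library (grey bars) and the knockdown library (red bars), with 1 library each and no error bars. Tcirg1 stands at 62.2 FPKM in the knockdown library against 22.9 in the control, while Atp6v0d1 stands at 84.1 against 147.

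The 6 genes of the V1 sector varied less, with log2 ratios between -0.18 and 0.36 and a median of 0.22. Atp6v1e1 (chromosome 6, 120794305 to 120822793), a peripheral stalk subunit, had the highest ratio, from 30.0 FPKM (2309 reads) to 38.8 FPKM (2986 reads), and a read ratio of 1.25 (1.18 to 1.32). Atp6v1c1 (chromosome 15, 38661933 to 38692446), whose subunit takes part in the reversible assembly of the pump, had the lowest, from 18.3 FPKM (1917 reads) to 15.96 FPKM (1674 reads), and a read ratio of 0.845 (0.791 to 0.902). The catalytic A subunit and its nucleotide-binding partner B alternate in the V1 head. Of their genes, Atp6v1a was at 9.35 and 9.27 FPKM (1058 and 1049 reads, log2 ratio -0.01), and Atp6v1b2 at 49.3 and 58.8 FPKM (0.25). The stalk gene Atp6v1d had 726 and 858 reads (0.22), and Atp6v1h, whose subunit regulates ATP hydrolysis, 887 and 1070 (0.23). Rgs20, which overlaps exons of Atp6v1h, had 68 and 165 reads. Atp6ap1, the accessory subunit needed for assembly, was the most abundant of the 12 V-ATPase genes in the control library, at 166 FPKM (9388 reads) against 160.5 FPKM (9096 reads) with knockdown (log2 ratio -0.05). The tissue-restricted isoforms Atp6v1b1, Atp6v1e2 and Atp6v1g3 had no reads.

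Among the 29 genes with a promoter window, ratios of both signs occurred with and without the E-box. The 13 genes with CACGTG had a median log2 ratio of 0.05, from -0.80 (Atp6v0d1) to 0.62 (Naglu), with 8 higher and 5 lower. The 16 without it had a median of 0.22, from -0.45 (Lamp2) to 0.79 (Ctsz), with 10 higher and 6 lower. For GTCACGTG the medians were 0.05 over 9 genes and 0.22 over 20. The ranges overlapped over most of their length, and the difference was not tested.

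The wider pathway was described with 133 other genes in 8 lists, none of them among the 35. Of these, 102 reached 1 FPKM and 31 did not, the latter with 328 and 444 reads in all. Among the 102, 63 were higher and 39 lower, with a median log2 ratio of 0.10, with 8 past 2-fold upward and 4 downward. These 12 are 11.8% of the 102, close to the 11.7% of all genes that were 2-fold apart in either direction. Ratios of the 35 genes ran from -0.80 to 0.79 and those of the 102 from -1.69 to 3.15, a difference in range that also reflects the number of genes.

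**Figure D4:**
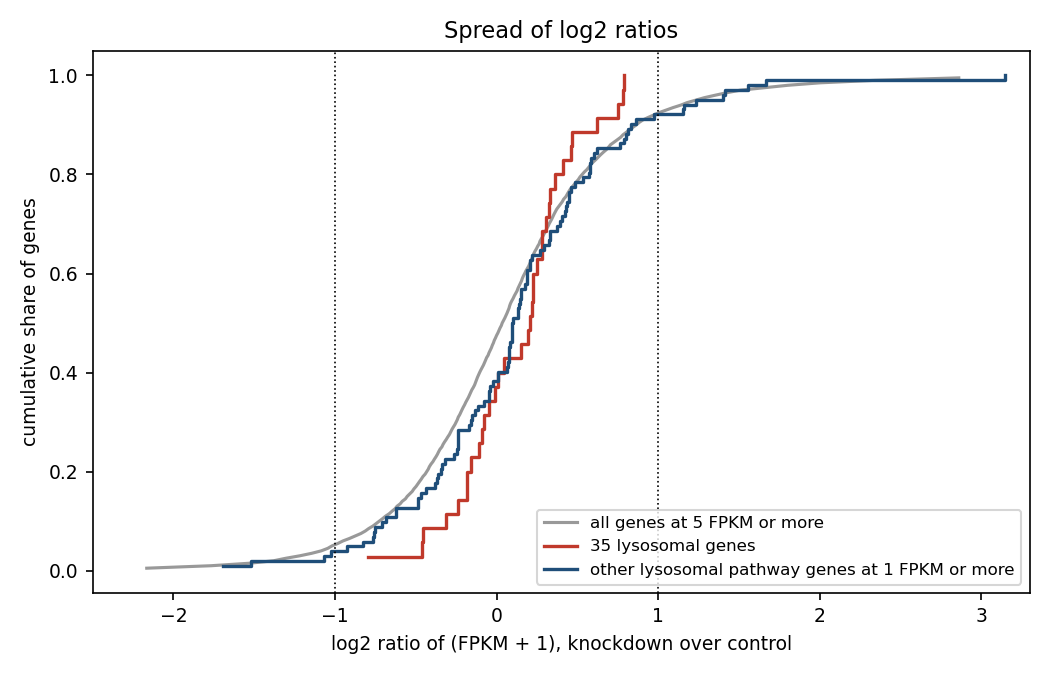
Cumulative share of genes by log2 ratio of (FPKM + 1), knockdown over control, for the 35 lysosomal genes (red), the 102 other pathway genes at 1 FPKM or more (blue) and all 6870 genes at 5 FPKM or more (grey, drawn without the outermost tails), with dotted lines at 2-fold. The red curve begins at -0.80 and ends at 0.79, inside the dotted lines, while the other curves cross both.

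Among membrane proteins outside the list, Cd68 (chromosome 11, 69664213 to 69666153) stood far from the rest. This gene encodes a LAMP-family glycoprotein best known from macrophages. Control cells had 245 reads (10.4 FPKM) of it and knockdown cells 2360 reads (100.2 FPKM), which is 3.15 on the log2 scale and 9.32 (8.17 to 10.7) by reads. The macrophage markers Adgre1, Itgam, C1qa and C1qb had no reads in either library, as did Cd163 and Tyrobp. Of the other 6 markers, Cd14 went from 638 to 1217 reads (log2 ratio 0.90), Mrc1 from 2 to 18, Ptprc from 0 to 4, Fcgr1 from 0 to 1, Csf1r from 1 to 0 and Lyz2 from 23 to 21. Their part in the Cd68 ratio was not tested. Laptm4b (chromosome 15, 34238028 to 34284302), a transmembrane protein of late endosomes, was the lowest of the list, from 70.4 to 23.9 FPKM (-1.52). The list as a whole had 16 genes higher and 9 lower at a median of 0.15, or 0.33 over those at 5 FPKM or more.

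Of 12 other proteases, 6 reached 1 FPKM, 3 higher and 3 lower. Scpep1 (chromosome 11, 88924020 to 88955465), a retinoid-inducible serine carboxypeptidase, was the lowest gene of the whole pathway. It went from 10396 reads (265 FPKM) to 3194 reads (81.3 FPKM), or -1.69 on the log2 scale and 0.297 (0.286 to 0.309) by reads. The highest of the list was Cpq, a plasma glutamate carboxypeptidase, at 0.98. The cathepsin genes Ctsc, Ctsf, Ctsh and Ctss had no reads in either library, and the remaining cathepsins of the list, Ctsk, Ctso and Ctsw, had at most 120 reads.

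Other glycosidases and sulfatases had 14 genes higher and 8 lower, at a median of 0.24. Hpse, the heparanase that cuts heparan sulfate chains, went from 2206 to 4992 reads (log2 ratio 1.15), and Galns, the N-acetylgalactosamine-6-sulfatase of Morquio syndrome, from 618 to 1440 (1.16). Hyal1, a hyaluronidase, went from 38 to 185 reads, a read ratio of 4.71 (3.31 to 6.86). Only in the knockdown library did it pass the 1 FPKM level. Its log2 ratio of (FPKM + 1) was 1.23, since the added 1 shrinks ratios at such low levels. Hyal1 overlaps Hyal3 and Nat6, which together had 194 and 546 reads. The lowest was Sumf1, which encodes the enzyme that activates all sulfatases, from 1077 to 497 reads (-1.02).

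Among lipid, phosphate and nucleic acid hydrolases, 9 genes were higher and 3 lower, at a median of 0.14, or 0.39 over those at 5 FPKM or more. Pla2g15 (chromosome 8, 106150399 to 106164715), the lysosomal phospholipase A, was highest, from 737 to 2276 reads (log2 ratio 1.56). Dnase2a (chromosome 8, 84908560 to 84922915), which digests DNA in lysosomes, went from 288 to 935 reads (1.41). Naaa, an acid amidase for N-acylethanolamines and the closest relative of Asah1 on these lists, was lowest, from 342 to 127 reads (-1.07), so the acid amidase genes Asah1 and Naaa were both lower.

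**Figure D5:**
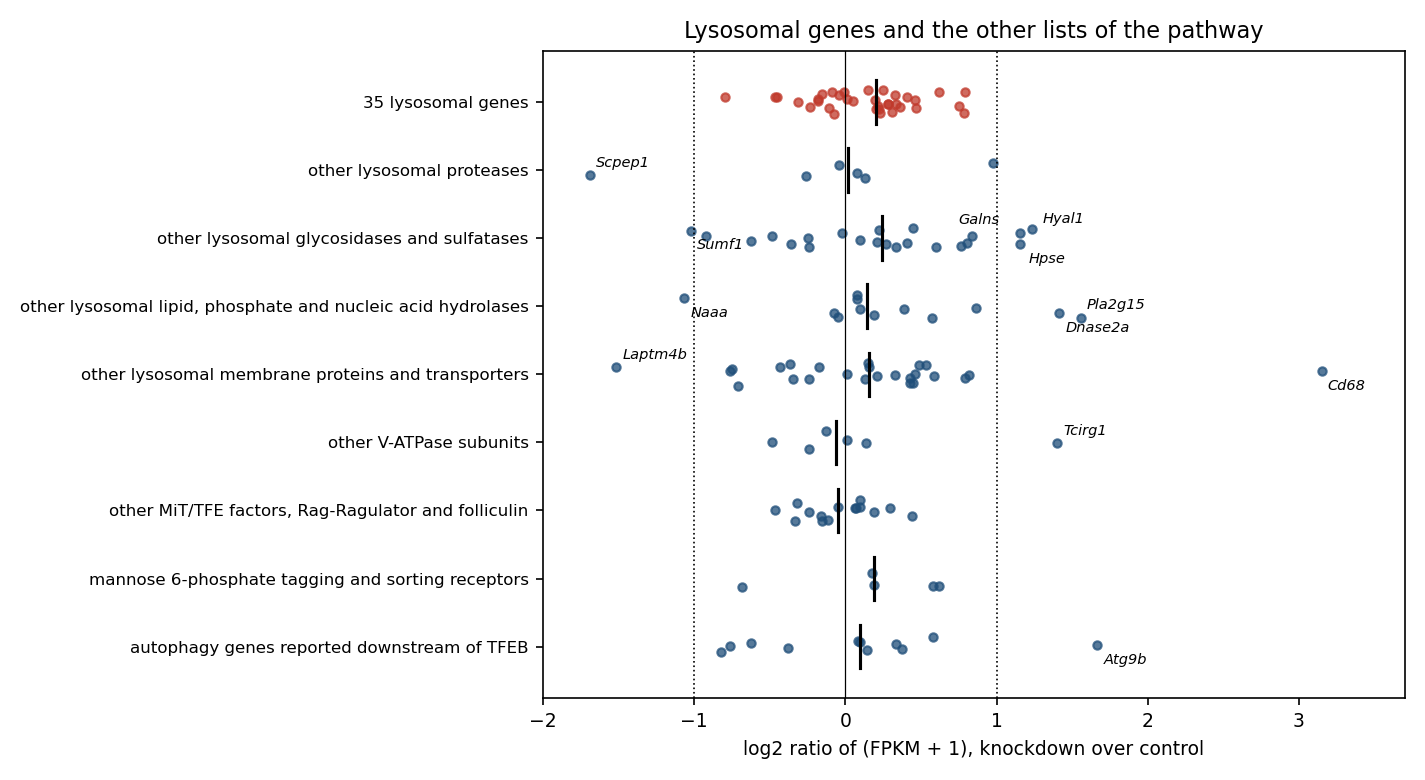
Log2 ratio of (FPKM + 1), knockdown over control, for the 35 lysosomal genes (red) and for each list of other pathway genes at 1 FPKM or more (blue); black bars are medians and dotted lines mark 2-fold. Genes at least 2-fold apart are named, from Scpep1 at -1.69 to Cd68 at 3.15, and the red points lie inside the dotted lines.

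The list of other MiT/TFE factors, Rag GTPases, Ragulator, folliculin, mTORC1 and its TSC brake, which bears on where TFEB and TFE3 are held, had 15 of 19 genes at 1 FPKM, and none of these was 1.5-fold apart on the log2(FPKM + 1) scale, which shrinks low genes such as Fnip1 (253 and 146 reads, read ratio 0.558, 0.452 to 0.687). Of the 15, 7 were higher and 8 lower, at a median of -0.05, from -0.47 for Fnip1 to 0.44 for Tsc1. Of mannose 6-phosphate tagging and sorting receptor genes, 5 of 6 reached 1 FPKM, 4 higher and 1 lower at a median of 0.19. Sort1, under that level, had 14 control reads and 9 knockdown reads. Gnptab, part of the enzyme that begins the tag, was lowest, from 689 to 388 reads (-0.68), while Gnptg, another subunit gene of that enzyme, had 567 and 653 reads (0.19). Nagpa, which uncovers the tag, was highest, from 425 to 678 reads (0.62).

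All 11 autophagy genes described as TFEB targets were detected, with 7 higher and 4 lower and a median of 0.09. Atg9b (chromosome 5, 24384181 to 24392143), a membrane protein of early autophagosome formation, was highest, from 581 to 2003 reads (log2 ratio 1.67), and overlaps exons of Nos3, which had 5 and 60 reads. Gpnmb, a glycoprotein used as a marker of lysosomal stress, was lowest, from 26808 reads (220 FPKM) to 15064 reads (123 FPKM), a log2 ratio of -0.83. Sqstm1, the autophagy receptor p62, chosen after its values were seen because it had the most reads of the list, went from 49854 to 29328 (-0.76).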

How the data were processed

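Per the labels, RNA came from trypsinized cells by TRIzol, and NEBNext Ultra was the library kit. The submitters' processing notes name CASAVA, HISAT2, featureCounts 1.5.0-p3 and GRCm38, without roles. The strand setting is not given in the sources used here. The authors deposited FPKM values for 54680 loci. FPKM times gene length gave whole reads, within 0.001, for 100% of values above 0 in both libraries, and both had been divided by 1 common depth, so the ratios carry the 1.03 ratio of the read totals. The whole table was used, with a pseudocount of 1 FPKM and a minimum of 1 FPKM in at least 1 library for the 10671 genes counted. With 1 library per group no test between conditions was made. The exact binomial test (smaller tail doubled) compares the libraries only.

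The 35 genes, the lists of other pathway and marker genes and the settings were chosen with earlier results of these data known. Genes were named by rule: the highest and lowest ratio of each role or list, any gene at least 2-fold apart, Tfeb and Tfe3; genes named as partners of these were chosen by function after values were seen. Spans of 33 of the 35 genes matched GENCODE M21 exactly, and exons of 8 overlapped another gene with at least 10 reads. Protein matches of 8 were shared with other loci, which are not always copies of the same gene. The match of Mcoln1 was also given to Fmn1, a different protein-coding gene with 303 control and 211 knockdown reads. With loci summed, the Mcoln1 log2 ratio of -0.13 therefore includes reads of Fmn1. Alternatives were a pseudocount of 0.1, no minimum or 5 FPKM, 3 scalings, CPM, summed loci, 1.5-fold and the binomial test. The calculations were tested on simulated data. Software was matplotlib 3.10.9, scipy 1.17.1, pandas 2.3.3, numpy 2.4.6 and Python 3.11.15.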

Additional observations from a re-analysis of the deposited data

How the results depend on the processing

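Over 280 alternative values of the 35 genes, 251 stayed within counting error, 29 moved and none of the 31 genes whose interval excluded 1 changed sign. Of the other 4, Ctsa and Glb1 changed sign with the scaling. All 35 genes reached 5 FPKM, so the settings with no minimum and with 5 FPKM could not change a gene's own ratio. Summing loci could not change it either where no other locus with the same protein match held reads. These unchanged values are among the 251, which therefore overstates how far the ratios were put to a check. The median of the 35 genes was 0.15 under upper-quartile scaling and 0.16 both by each library's own total and on log2(CPM + 1), and that of the enzyme and membrane genes 0.14, 0.15 and 0.15; the last 2 settings divide each library by its own depth. The glycosidase median turned to -0.0402, -0.0362 and -0.0370 under the same 3 settings. That of the other lysosomal proteases turned to -0.0226, -0.0194 and -0.00547, and to -0.15 with the 5 FPKM minimum. The same minimum gave 0.39 for the lipid, phosphate and nucleic acid hydrolases and 0.33 for the membrane proteins and transporters, from fewer genes. Under upper-quartile scaling the median of the 102 other pathway genes was 0.0521 and that of the membrane protein genes -0.126. Why the medians moved was not tested. No member was 2-fold apart under any pseudocount, minimum or scaling run. At 1.5-fold 4 members were higher and 1 lower, and by the binomial test 19 and 12, as those rules make them. Over all genes the counts were 1134 higher and 870 lower with the pseudocount of 0.1, 1804 and 1523 at 1.5-fold, and 3681 and 4264 by the binomial test. The Setdb1 ratio was -1.72, and -2.04 with the pseudocount of 0.1 and -2.06 on log2(CPM + 1). No paired analysis was possible because neither group had more than 1 library, and none could be left out. Depth was lowest for the 31 pathway genes under 1 FPKM.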

Other observations

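Heparan sulfate is broken down in lysosomes by enzymes that act in turn, and its genes, grouped after their values were seen, differed in sign from step to step. Ids, iduronate sulfatase, went from 652 to 298 reads (log2 ratio -0.93) and Sgsh, the sulfamidase, from 259 to 139 reads (-0.62). Their read ratios were 0.442 and 0.519. Idua was at -0.24 and Gusb at -0.31. Hgsnat was at 0.22, while Naglu was at 0.62 and the chain-cutting Hpse at 1.15. Sumf1, whose product activates sulfatases, was at 46.1% of the control FPKM.

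Slc15a4, a lysosomal histidine transporter known for its part in innate immune signalling, went from 1094 to 2001 reads (log2 ratio 0.82), and the lysosomal cation channel gene Tpcn2 from 263 to 526 reads (0.79). By reads the ratios were 1.77 for Slc15a4 and 1.93 for Tpcn2. Both genes were chosen after their values were seen. Differences between cultures or libraries cannot be told apart from the knockdown with 1 library per group.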
